A study of Mus musculus with 55 samples.

Results

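Interscapular brown fat was set against subcutaneous white fat of mice given corticosterone in the cold, with 5 libraries of the group iBAT_GC_CT and 4 of the group scWAT_GC_CT, 9 of the 55 libraries of the series. All libraries whose label gave one of these groups were used, and the deposited count tables of the depots were joined by Ensembl gene ID. Both groups came from male C57BL/6NRj mice aged 10 weeks that had received corticosterone (GC, the main glucocorticoid of mice) for 4 weeks and were housed at 13 °C (CT). The labels name no mutation, transgene or other agent in either group. To ask whether the depot difference depended on the hormone or on the temperature, it was also measured in 10 libraries of placebo-treated (Ctrl) mice at 13 °C, iBAT_Ctrl_CT and scWAT_Ctrl_CT with 5 each, and in 10 libraries of corticosterone-treated mice at 22 °C, iBAT_GC_RT and scWAT_GC_RT with 5 each, of the same sex, strain and age. The fit for these questions used all 36 libraries of the depots. It therefore also held placebo-treated mice of the same age at 22 °C, iBAT_Ctrl_RT with 3 libraries and scWAT_Ctrl_RT with 4. They entered its filter, scaling and spread. Areas of fat sections were collected by laser capture, so a library holds the RNA of a small region that includes adipocytes and whatever other cells lay there. No label says which animal a library came from, and p-values therefore measure the spread between libraries; if libraries of a group share an animal, they are too small.

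Brown adipocytes are packed with mitochondria and make heat: uncoupling protein 1 lets protons flow back across the inner mitochondrial membrane without making ATP, and fatty acids and glucose are burned to keep the proton gradient up. White adipocytes store triglyceride in a single large droplet and secrete hormones such as leptin and adiponectin. Noradrenaline from sympathetic nerves, released in the cold, drives heat production through β-adrenergic receptors and cAMP. Glucocorticoids act through the nuclear receptor encoded by Nr3c1 on genes of fuel storage, stress and daily rhythm in both kinds of fat.

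In brown fat, 2491 of 16600 genes tested (15.0%) were higher than in subcutaneous fat and 2572 (15.5%) were lower, at a Benjamini-Hochberg adjusted p under 0.05, from the quasi-likelihood test of edgeR over all genes tested. The median log2 fold change of all genes was -0.08, where a fold change is brown fat over subcutaneous fat. Of the called genes, 4243 differed by at least 2-fold, and at least 8-fold differences numbered 326 higher and 373 lower in brown fat. The libraries held 15918463 to 32267951 reads counted to genes in brown fat and 19846686 to 28627942 in subcutaneous fat. Across genes, the correlation of log2 levels between pairs of libraries was 0.843 to 0.941 within brown fat and 0.930 to 0.950 within subcutaneous fat, and 0.733 to 0.855 between the depots. Some libraries stood apart. The summed level of white-fat secreted factors was 15824 CPM, the read count scaled to library size, in brown fat replicate 2, against 4524 to 4896 CPM in the other 4 brown fat libraries and 35028 to 48623 CPM in subcutaneous fat. Skeletal muscle markers summed to 1273 CPM in brown fat replicate 4, against 63.9 to 212 CPM in the other 4 brown fat libraries. Epithelial markers summed to 344 and 388 CPM in subcutaneous fat replicates 4 and 5, and to 18 and 85.7 CPM in replicates 1 and 3. These libraries were kept. When both brown fat libraries were left out, 19 of 20 thermogenic effectors and 36 of 36 complex I genes were still called higher in brown fat, and 15 of 21 white-fat secreted factors lower.

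**Figure D1:**
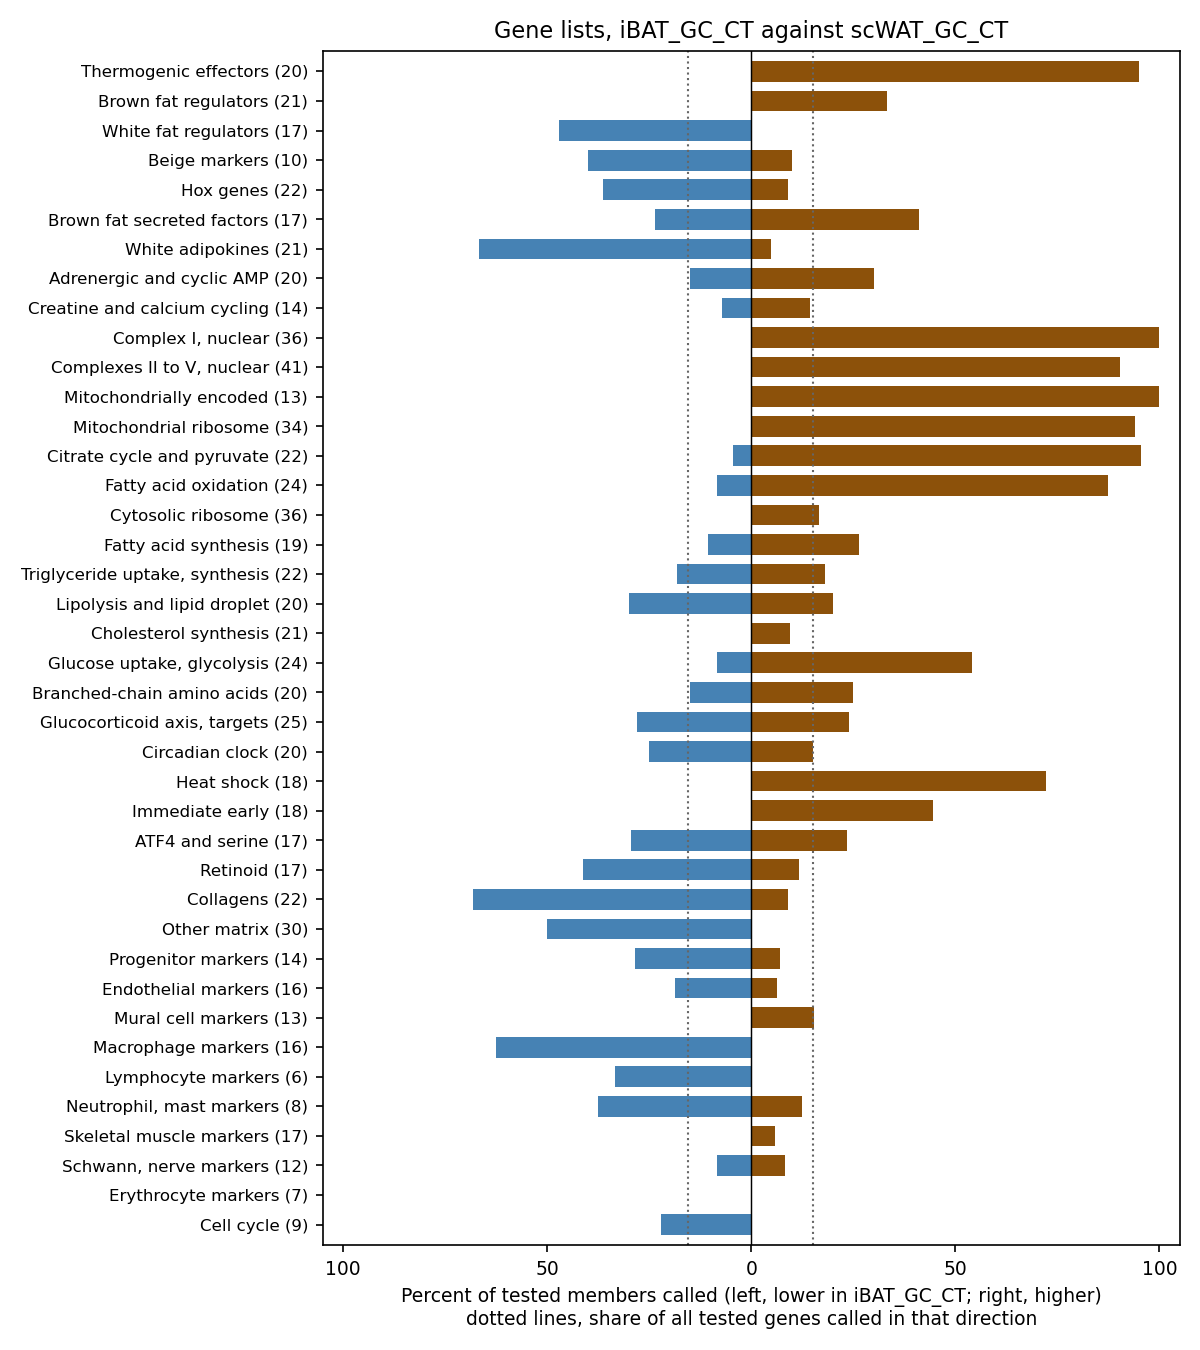
Share of the members of each gene list that were called higher (right) or lower (left) in brown fat of corticosterone-treated mice at 13 °C than in their subcutaneous fat, for lists with at least 5 members tested, at an adjusted p under 0.05. Dotted lines mark the share over all genes tested, 15.0% higher and 15.5% lower. Complex I, with 36 of 36 members called higher, reaches 100%, and the bars of macrophage markers, white adipokines, collagens and other matrix genes run mainly to the left.

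Of the lists tested, the one of heat-producing genes had the highest median difference. Among its 20 thermogenic effector genes, 19 were higher in brown fat and 0 were lower, against 15.0% and 15.5% of all genes, and the median log2 fold change of the list was 4.58. Ucp1 (ENSMUSG00000031710, protein coding, chromosome 8, 83290352 to 83298452 on GRCm38), which encodes uncoupling protein 1, had 5163, 3113, 10550.3, 8214 and 6539 CPM in the 5 brown fat libraries and 7.24, 46.0, 23.1 and 27.9 CPM in the 4 subcutaneous fat libraries. The lowest brown fat library stood far above the highest subcutaneous fat library, and the log2 fold change was 8.01 ± 0.64 (SE, adjusted p = 6.2e-06). Cox7a1, a subunit of cytochrome c oxidase found in heart, muscle and brown fat, had 3416, 1491, 2918, 3808 and 1946 CPM in brown fat and 8.6, 18.2, 16.7 and 6.89 CPM in subcutaneous fat. The groups did not overlap, and its log2 fold change was 7.75 ± 0.50.

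Cidea, a lipid droplet protein, averaged 3193 ± 1222 CPM in brown fat and 89.1 ± 80.5 CPM in subcutaneous fat (SD, n = 5 and 4; log2 fold change 5.16 ± 0.61). Elovl3, which lengthens very long fatty acids, had 260.4, 332, 1419, 492 and 302 CPM in brown fat and 1.55, 11.7, 2.84 and 0.793 CPM in subcutaneous fat, a log2 fold change of 7.05 ± 0.98. Brown fat replicate 3 was the high library for Elovl3, and the groups did not overlap. Dio2, the deiodinase that makes active thyroid hormone inside the cell, averaged 40.6 ± 30.2 CPM in brown fat and 1.54 ± 1.32 CPM in subcutaneous fat (log2 fold change 4.71 ± 0.69). Slc27a2, a transporter and activating enzyme of long fatty acids, averaged 99.0 ± 47.9 CPM in brown fat and 1.33 ± 1.28 CPM in subcutaneous fat, and Chchd10, a mitochondrial intermembrane space protein, 3480.0 ± 1339 CPM in brown fat and 219 ± 23.7 CPM in subcutaneous fat. Their log2 fold changes were 6.19 ± 0.71 and 3.99 ± 0.36.

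Cpn2, the regulatory subunit of carboxypeptidase N, was nearly silent in subcutaneous fat. It had 1234 reads over the 5 brown fat libraries and 3 over the 4 subcutaneous fat libraries, a ratio of 454 with a 95% interval of 155 to 2205 that covers counting error only. Fabp3, a fatty acid binding protein of heart and muscle, had a log2 fold change of 8.14 ± 0.76; it has a near-identical pseudogene copy, and reads could be split between them. The adjusted p of these genes was 1.01e-06 to 0.000363. Car4, a carbonic anhydrase on the cell surface, was the one list member not called, with 67.8 ± 16.4 CPM in brown fat and 121 ± 58.8 CPM in subcutaneous fat (log2 fold change -0.84 ± 0.32, adjusted p = 0.0577); it was called lower in brown fat when subcutaneous fat replicate 1 or 5 was left out, at -0.99 and -1.06, and also with no filter on low counts, limma-voom weights or the spread from 36 libraries, at -0.89, -0.88 and -0.84. In a bulk library, fewer cells of a type and less RNA per cell cannot be told apart, so these values do not say whether subcutaneous fat held few strongly expressing adipocytes or many weak ones.

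**Figure D2:**
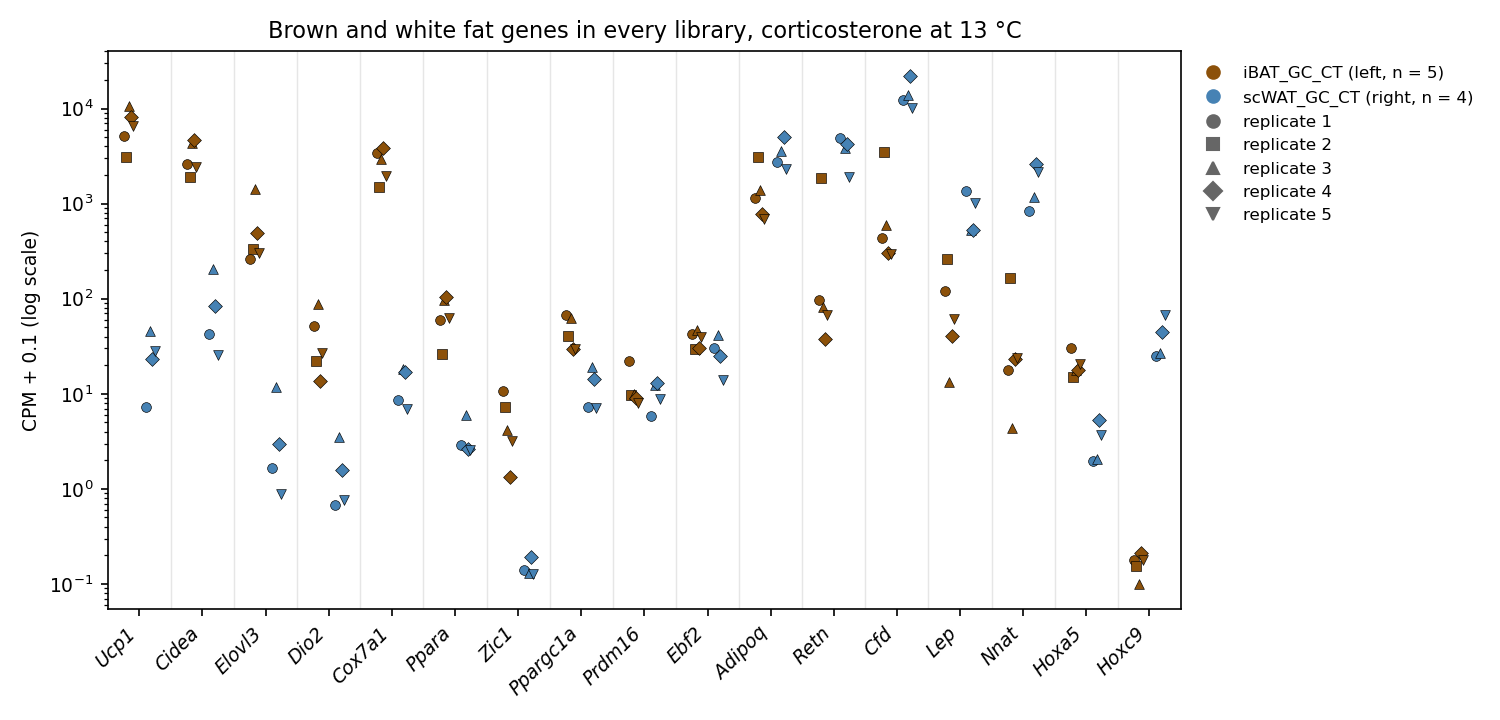
Level of 17 genes in each library, in CPM + 0.1 on a log axis, with brown fat libraries at the left and subcutaneous fat libraries at the right of each gene and the marker shape giving the replicate number. Ucp1, Cidea, Elovl3, Cox7a1 and Ppara separate the depots, Prdm16 and Ebf2 overlap, and brown fat replicate 2 stands nearest to subcutaneous fat for Retn, Cfd, Adipoq and Nnat.

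Among the promoters of these genes, 4 are shown: that of Ucp1, the gene that defines brown fat, and those of Dio2, Cpn2 and Slc27a2, the members of the list whose promoters hold one of the motifs searched. Each is the RefSeq sequence (GRCm38.p6) of the 250 bases before the annotated start, given 5′ to 3′ on the gene's own strand. Capitals mark a full cAMP response element (TGACGTCA, its own reverse complement) or a nuclear receptor monomer site (AAGGTCA, or TGACCTT on the other strand). Ucp1 lies at chr8:83290098-83290347 on the plus strand, Dio2 at chr12:90739039-90739288 on the minus strand, Cpn2 at chr16:30267533-30267782 on the minus strand and Slc27a2 at chr2:126552774-126553023 on the plus strand.
Ucp1: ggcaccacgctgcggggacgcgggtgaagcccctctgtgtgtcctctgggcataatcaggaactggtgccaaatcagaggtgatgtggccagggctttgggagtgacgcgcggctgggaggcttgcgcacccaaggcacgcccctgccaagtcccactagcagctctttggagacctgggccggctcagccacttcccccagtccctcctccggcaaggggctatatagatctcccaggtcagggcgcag
Dio2: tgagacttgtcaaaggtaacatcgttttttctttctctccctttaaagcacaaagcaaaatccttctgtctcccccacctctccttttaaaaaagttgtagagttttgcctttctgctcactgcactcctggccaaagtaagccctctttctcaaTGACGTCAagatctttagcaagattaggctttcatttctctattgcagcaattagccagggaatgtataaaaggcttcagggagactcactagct
Cpn2: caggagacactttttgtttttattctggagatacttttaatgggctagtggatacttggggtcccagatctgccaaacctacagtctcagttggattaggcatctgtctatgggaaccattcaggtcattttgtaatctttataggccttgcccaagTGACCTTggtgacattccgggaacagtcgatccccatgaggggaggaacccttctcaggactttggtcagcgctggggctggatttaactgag
Slc27a2: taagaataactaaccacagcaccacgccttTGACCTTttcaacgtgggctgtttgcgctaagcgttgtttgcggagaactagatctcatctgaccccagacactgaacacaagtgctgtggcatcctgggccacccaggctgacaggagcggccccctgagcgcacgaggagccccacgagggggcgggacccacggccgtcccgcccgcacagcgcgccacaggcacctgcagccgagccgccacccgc
The cAMP response element of Dio2 spans 95 to 88 bases upstream of the start, and these letters occur in 1.77% of the 27025 genes with a promoter in the table. The monomer site occurs in 4.7% of them, 93 to 87 bases upstream in Cpn2 and 220 to 214 bases upstream in Slc27a2. These distances are from the RefSeq starts, and GENCODE differs for some genes. It starts Slc27a2 at 126552407, so the window shown lies inside that gene, and it starts Dio2 at 90738438. Of the 15 thermogenic genes found in the table, 1 held the first motif and 2 the second. Neither motif is in the 250 bases shown for Ucp1. A match is a run of letters, and nothing was measured at these sites.

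The respiratory chain was higher in brown fat in nearly every subunit measured. All 36 nuclear genes of complex I were called higher and none overlapped between the groups, with a median log2 fold change of 2.47. In complexes II to V, 37 of 41 genes were higher and 0 lower, with a median of 2.60. Over all genes, 15.0% were called higher, 15.5% lower, and 28.0% did not overlap. Ndufb6, a subunit of complex I, had 1078, 733, 1162, 1557 and 781 CPM in brown fat and 105, 113, 122 and 74.5 CPM in subcutaneous fat, and its log2 fold change was 3.36 ± 0.31. Cox5a and Cox7b of cytochrome c oxidase averaged 2242 ± 761 CPM in brown fat and 229 ± 10.9 CPM in subcutaneous fat for the first and 2018 ± 490.2 CPM in brown fat and 168 ± 41.6 CPM in subcutaneous fat for the second. Their log2 fold changes were 3.29 ± 0.31 and 3.58 ± 0.32, with adjusted p of 1.28e-05 to 1.67e-05. Atp5g1, a gene for the proton ring of the ATP synthase that is known for its low expression in rodent brown fat, had 3.06, 15.8, 4.87, 12.9 and 3.63 CPM in brown fat and 17.1, 11.1, 12.9 and 14.2 CPM in subcutaneous fat. It was not called (log2 fold change -0.77 ± 0.45, adjusted p = 0.215), and without brown fat replicates 2 and 4 together it was called lower in brown fat, at -1.77, as it was with limma-voom weights, at -0.96.

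The 13 protein genes of the mitochondrial genome were all called higher, with a median log2 fold change of 2.48. mt-Nd1, a complex I subunit, had 58409, 30404, 54439, 23975 and 18453 CPM in brown fat and 4148, 6215, 7757 and 3013 CPM in subcutaneous fat. The groups did not overlap (log2 fold change 2.81 ± 0.45, adjusted p = 0.000441). Nuclear copies of mitochondrial sequence exist in the mouse, so reads of these genes may be shared with them. The mitochondrial genome supplied 29.5, 18.8, 24.7, 13.4 and 12.5% of counted reads in brown fat and 4.23, 6.31, 7.41 and 3.42% in subcutaneous fat. Every brown fat library stood above every subcutaneous fat library, with 19.8 ± 7.32% and 5.34 ± 1.84% (SD, n = 5 and 4; two-sided exact permutation p = 0.0159, adjusted over 2 shares 0.0159). Nuclear genes of the respiratory chain took 10.6 ± 2.42% in brown fat and 2.83 ± 0.304% in subcutaneous fat, an exact permutation p of 0.00794, the smallest that 126 splits of 9 libraries allow. The mitochondrial ribosome had 32 of 34 proteins higher and 0 lower, with a median of 1.34, while of 36 cytosolic ribosomal proteins 6 were higher, a share near the 15.0% of all genes, and 0 lower, with a median of 0.47.

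Fuel-burning pathways went the same way. In the citric acid cycle and pyruvate entry, 21 of 22 genes were higher in brown fat and 1 was lower, against 15.0% and 15.5% of all genes. Pdk4, the kinase that shuts pyruvate dehydrogenase, averaged 2451 ± 1008 CPM in brown fat and 165 ± 115 CPM in subcutaneous fat (log2 fold change 3.89 ± 0.49), and Sucla2, a succinyl-CoA ligase subunit, 2658 ± 699 CPM in brown fat and 291 ± 82.8 CPM in subcutaneous fat (log2 fold change 3.19 ± 0.33). Pcx, pyruvate carboxylase, was the lower member, at -1.25 ± 0.29 on the log2 scale. Of 24 genes of fatty acid oxidation, 21 were higher and 2 lower. Hadhb, a subunit of the trifunctional protein, averaged 1455 ± 301 CPM in brown fat and 124 ± 56.4 CPM in subcutaneous fat (log2 fold change 3.56 ± 0.36), and Acaa2, the last thiolase step, had a log2 fold change of 3.55 ± 0.37.

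The carnitine palmitoyltransferases that admit long fatty acids into mitochondria were split. Cpt1b, the muscle form, had 3.22, 1.99, 5.96, 6.34 and 8.69 CPM in brown fat and 0.0387, 1.71, 0.652 and 0.0821 CPM in subcutaneous fat. The groups did not overlap, and its log2 fold change was 3.06 ± 0.85. Cpt1a, the liver form, averaged 5.01 ± 3.21 CPM in brown fat and 18.5 ± 2.96 CPM in subcutaneous fat and was lower in brown fat (log2 fold change -1.90 ± 0.40, adjusted p = 0.00276). Glycolysis and glucose uptake had 13 of 24 genes higher and 2 lower, against 15.0% and 15.5% of all genes. Hk2, a hexokinase, averaged 391 ± 198 CPM in brown fat and 74.9 ± 23.8 CPM in subcutaneous fat, with brown fat replicate 1 the high library at 733 CPM. Ldhb, the lactate dehydrogenase chain of oxidative tissues, Pgk1 and Eno1, both glycolytic enzymes, had log2 fold changes of 3.14 ± 0.32, 2.51 ± 0.28 and 2.43 ± 0.30. Irs1, the insulin receptor substrate, had 0.392, 0.915, 0.865, 1.13 and 1.93 CPM in brown fat and 11.6, 15.7, 6.01 and 3.15 CPM in subcutaneous fat, and was lower at -3.09 ± 0.53 on the log2 scale. Slc2a4, the insulin-responsive glucose transporter, was not called (log2 fold change 0.56 ± 0.23, adjusted p = 0.0745) and was called higher without brown fat replicate 2, at 0.68, and with DESeq2 and limma-voom, at 0.61 and 0.62.

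Fat synthesis and storage genes did not move as a block. Of 19 fatty acid synthesis genes, 5 were higher in brown fat and 2 lower, against 15.0% and 15.5% of all genes. Elovl6, which lengthens palmitate, and Acacb, an acetyl-CoA carboxylase tied to mitochondria, were higher at 2.04 ± 0.44 and 1.56 ± 0.34 on the log2 scale. Fads1, a desaturase of polyunsaturated fatty acids, and Srebf1, a regulator of lipid synthesis, were lower at -3.03 ± 0.42 and -1.23 ± 0.21. Fasn, fatty acid synthase, averaged 11690.5 ± 1576 CPM in brown fat and 6921 ± 3059.8 CPM in subcutaneous fat and was not called (log2 fold change 0.76 ± 0.32, adjusted p = 0.0892), and was called higher without subcutaneous fat replicate 1, at 1.08, and with DESeq2 and limma-voom, at 0.81 and 0.84. Scd1, the stearoyl-CoA desaturase, had 42218, 39072, 32287, 39047 and 69479 CPM in brown fat and 51856, 52614, 54338 and 23396 CPM in subcutaneous fat, and the depots overlapped (log2 fold change -0.04 ± 0.35, adjusted p = 0.951).

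Triglyceride uptake and assembly had 4 of 22 genes higher and 4 lower, shares near the 15.0% and 15.5% of all genes. Acsl5, an acyl-CoA synthetase, averaged 343 ± 203 CPM in brown fat and 34.0 ± 9.15 CPM in subcutaneous fat (log2 fold change 3.33 ± 0.41). Gpat3, which attaches the first acyl chain to glycerol phosphate, had 7.06, 16.6, 14.1, 10.2 and 8.42 CPM in brown fat and 108, 163, 134 and 127 CPM in subcutaneous fat, and was lower at -3.56 ± 0.28 with no overlap. Slc27a1, a fatty acid transporter, and Lpl, lipoprotein lipase, were lower at -2.68 ± 0.31 and -1.45 ± 0.35. The lipid droplet coat also differed by member. Plin5, a coat protein that links droplets to mitochondria, averaged 323 ± 99.4 CPM in brown fat and 48.1 ± 14.1 CPM in subcutaneous fat, and Plin2, found on small droplets, 2229 ± 673 CPM in brown fat and 544 ± 162 CPM in subcutaneous fat. Cidec, which fuses droplets into large ones, averaged 822 ± 346 CPM in brown fat and 3681 ± 287 CPM in subcutaneous fat, and Plin4, a coat protein of white adipocytes, 181 ± 98.4 CPM in brown fat and 1008 ± 222 CPM in subcutaneous fat. The log2 fold changes of these 4 genes were 2.75 ± 0.31, 2.04 ± 0.32, -2.16 ± 0.30 and -2.48 ± 0.34, with adjusted p of 3.89e-05 to 0.000417. Hcar1 and Hcar2, receptors for lactate and for ketone bodies that restrain lipolysis, were lower at -3.23 ± 0.53 and -3.91 ± 0.63; brown fat replicate 2 was the high brown fat library for Hcar1. Of the 20 droplet and lipolysis genes, 4 were higher and 6 lower, against 15.0% and 15.5% of all genes.

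Transcriptional regulators of brown fat identity separated into a group that was called and a larger group that was not called. Of 21 brown fat regulators tested, 7 were higher in brown fat and 0 lower, against 15.0% and 15.5% of all genes. Ppara, a nuclear receptor for fatty acids, had 59.0, 26.1, 97.0, 105 and 62.9 CPM in brown fat and 2.83, 5.9, 2.52 and 2.49 CPM in subcutaneous fat. Subcutaneous fat replicate 3 was the highest of its group for Ppara, and the depots did not overlap (log2 fold change 4.34 ± 0.45). Ppargc1a, the coactivator of mitochondrial biogenesis, had 66.8, 40.8, 62.7, 29.7 and 29.4 CPM in brown fat and 7.24, 18.8, 14.3 and 7.03 CPM in subcutaneous fat. All brown fat libraries were above all subcutaneous fat libraries (log2 fold change 1.95 ± 0.38, adjusted p = 0.0016).

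Ppargc1b, its relative, Esrrg, an oestrogen-related receptor, and Cebpb, a transcription factor of early adipocyte differentiation, were higher at 2.56 ± 0.35, 3.94 ± 0.59 and 3.02 ± 0.41. Several classical factors were not called. Prdm16, which directs brown fat fate in precursors, had 22.2, 9.52, 9.83, 8.97 and 7.84 CPM in brown fat and 5.73, 12.2, 12.8 and 8.78 CPM in subcutaneous fat (log2 fold change 0.24 ± 0.37, adjusted p = 0.656). Its groups overlapped, and brown fat replicate 1 was the high library. Ebf2, Lhx8, Irf4 and Pparg had log2 fold changes of 0.44 ± 0.30, -0.58 ± 0.39, 0.64 ± 0.39 and 0.45 ± 0.27, with adjusted p of 0.226 to 0.286. These are brown fat lineage factors, a mediator of the cold response and the master regulator of all adipocytes.

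Several genes of body position were at or near 0 in all libraries of one depot. Hox genes lie in clusters whose order follows the body axis, low numbers towards the head and high numbers towards the tail. Of 22 Hox genes tested, out of 36 in the files, 2 were higher in brown fat and 8 lower, against 15.0% and 15.5% of all genes. The median log2 fold change of the Hox genes was -1.50. The higher pair was Hoxa4 and Hoxa5. Hoxa5 (ENSMUSG00000038253, protein coding, chromosome 6, 52201754 to 52204587 on GRCm38) had 30.5, 15.0, 17.7, 17.7 and 20.4 CPM in brown fat and 1.86, 1.95, 5.22 and 3.58 CPM in subcutaneous fat, a log2 fold change of 2.69 ± 0.38, and Hoxa4 had one of 3.93 ± 0.62. At the other end, Hoxc9 (ENSMUSG00000036139, protein coding, chromosome 15, 102976439 to 102985099 on GRCm38) had 0.0784, 0.0538, 0, 0.109 and 0.0772 CPM in the 5 brown fat libraries and 25.0, 26.6, 44.5 and 66.7 CPM in the 4 subcutaneous fat libraries. Brown fat was close to 0 in every library (log2 fold change -9.18 ± 0.52, adjusted p = 6.8e-07).

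Hoxc10 (ENSMUSG00000022484, protein coding, chromosome 15, 102966796 to 102971893 on GRCm38) had 1 read over the 5 brown fat libraries and 1707 over the 4 subcutaneous fat libraries, a ratio of 1546 in favour of subcutaneous fat with a 95% counting interval of 277 to 61102. Hoxa9, Hoxa10 and Hoxd9 were lower at -8.33 ± 0.66, -9.38 ± 0.56 and -4.47 ± 0.76; the annotated loci of Hoxa9 and Hoxa10 are neighbours, and reads of joined transcripts could be credited to either. Hoxc8 had 33.7, 0.753, 2.05, 0.838 and 0.463 CPM in brown fat and 40.1, 44.3, 63.3 and 41.5 CPM in subcutaneous fat. Brown fat replicate 1 was the high library of its group, and Hoxc8 was not called with it (log2 fold change -2.68 ± 1.19, adjusted p = 0.118) and was called lower without it, at -5.45. With all libraries kept it was called lower with limma-voom weights, at -5.30 (adjusted p = 1.68e-06), and with the spread from 36 libraries, at -2.71 (adjusted p = 0.0392). Zic1, a factor of dorsal trunk tissue and a marker of classical brown fat, had 10.5, 7.16, 4.1, 1.24 and 3.05 CPM in brown fat and 0.0387, 0.0295, 0.0932 and 0.0274 CPM in subcutaneous fat, a log2 fold change of 6.73 ± 0.82 with no overlap. Tbx15 and Shox2, developmental regulators of the trunk and limb, were lower in brown fat at -2.41 ± 0.58 and -3.87 ± 0.73. Of 17 regulators of white fat, 0 were higher and 8 lower, against 15.0% and 15.5% of all genes. This list holds Hoxc10, already counted among the Hox genes, so the 2 counts overlap.

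**Figure D3:**
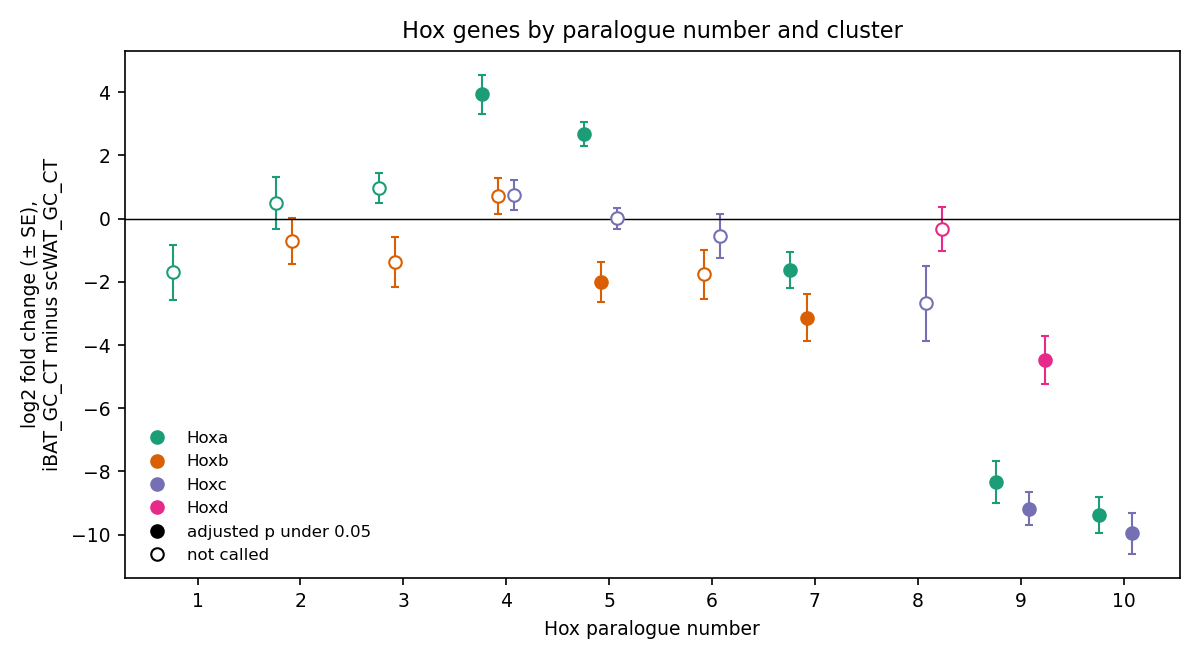
Log2 fold change of each of 22 Hox genes, brown fat over subcutaneous fat, against the paralogue number in the cluster, with bars for the standard error, colour for the cluster and filled markers for an adjusted p under 0.05. Hoxa4 and Hoxa5 stand above 0, and Hoxa9, Hoxa10, Hoxc9 and Hoxc10 lie below -8.

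Secreted factors split by depot. White-fat secreted factors had 1 of 21 genes higher in brown fat and 14 lower, against 15.0% and 15.5% of all genes. Their median log2 fold change was -1.92. Lep, leptin, had 121, 259.8, 13.1, 40.5 and 61.0 CPM in brown fat and 1349, 531, 531 and 1024 CPM in subcutaneous fat (log2 fold change -3.11 ± 0.68, adjusted p = 0.00479). Cfd, adipsin, had 438, 3494, 595, 301 and 296 CPM in brown fat and 12419, 13837, 21936 and 10239 CPM in subcutaneous fat (log2 fold change -3.83 ± 0.72). Brown fat replicate 2 was the high brown fat library for both, and neither gene's groups overlapped. Adipoq, adiponectin, had 1144, 3133, 1379.5, 786 and 683 CPM in brown fat and 2726, 3614, 4976 and 2314 CPM in subcutaneous fat. Its groups overlapped through brown fat replicate 2, and its call (log2 fold change -1.26 ± 0.42, adjusted p = 0.0353) was lost when brown fat replicate 1, 3, 4 or 5 or subcutaneous fat replicate 3 or 4 was left out.

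Retn, resistin, had 97.9, 1852, 82.4, 37.6 and 67.6 CPM in brown fat and 4872, 3819, 4193 and 1891 CPM in subcutaneous fat. It was not called (log2 fold change -3.11 ± 1.11, adjusted p = 0.0573), and without brown fat replicate 2 it was, at -5.63. With all libraries kept it was called lower by DESeq2 (adjusted p = 0.00909), with limma-voom weights (0.00213) and with the spread from 36 libraries (0.0143). Trf, transferrin, and Nnat and Mest, both imprinted genes linked to white adipocyte growth, were lower at -4.16 ± 1.0, -5.18 ± 0.95 and -6.24 ± 0.92. Angptl8, an inhibitor of lipoprotein lipase, was the higher member (log2 fold change 0.91 ± 0.30, adjusted p = 0.0355), a call lost without brown fat replicate 4 or subcutaneous fat replicate 1, 4 or 5, without brown fat replicates 2 and 4 together (adjusted p = 0.177), and with the spread from 36 libraries (0.153). With no filter on low counts, neither Angptl8 (adjusted p = 0.0519) nor Trf (0.0526) was called.

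Among 17 secreted factors linked to brown fat, 7 were higher and 4 lower, against 15.0% and 15.5% of all genes. Bmp8b, a bone morphogenetic protein that sensitises brown fat to noradrenaline, had 15.8, 0.592, 2.28, 1.09 and 1.54 CPM in brown fat and 0, 0, 0 and 0 CPM in subcutaneous fat. With no read in subcutaneous fat, it was at least 123-fold higher in brown fat, taking a floor of 3 counts over the group. Brown fat replicate 1 held 202 of its 333 reads, and without that library the bound was 54.8-fold. Kng2, a kininogen, S100b, a calcium-binding protein secreted by brown adipocytes towards nerves, and Ptgds, prostaglandin D synthase, were higher at 7.07 ± 0.61, 6.18 ± 0.52 and 3.56 ± 1.0; with no filter on low counts Ptgds was not called (adjusted p = 0.0909). Vegfa, the vascular growth factor, averaged 101 ± 61.8 CPM in brown fat and 34.9 ± 10.3 CPM in subcutaneous fat (log2 fold change 1.53 ± 0.38). Cxcl14, a chemokine, and Epdr1, a small secreted protein, both described as brown fat products, were lower in brown fat at -2.37 ± 0.42 and -2.48 ± 0.40, with adjusted p of 0.000982 and 0.000448.

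The adrenergic pathway held calls in both directions. Of 20 genes, 6 were higher in brown fat and 3 lower, against 15.0% and 15.5% of all genes, with a median log2 fold change of 0.03. Adrb1, the β1 receptor, averaged 23.8 ± 9.68 CPM in brown fat and 4.37 ± 3.46 CPM in subcutaneous fat (log2 fold change 2.45 ± 0.50), and Adra1a, an α1 receptor, was higher at 1.54 ± 0.31. Adrb3, the main β receptor of rodent adipocytes, had 344, 403, 481, 458 and 950.1 CPM in brown fat and 678, 921, 972 and 876 CPM in subcutaneous fat and was not called (log2 fold change -0.71 ± 0.30, adjusted p = 0.0884); without brown fat replicate 5, the high library of its group, it was called lower in brown fat at -0.96, as it was with limma-voom weights, at -0.76. Pde4d, which breaks down cAMP, and Prkaca, the catalytic subunit of protein kinase A, were higher at 2.56 ± 0.32 and 1.16 ± 0.26. Gnai1, an inhibitory G protein subunit, and Npr3, the clearance receptor of natriuretic peptides, were lower at -1.45 ± 0.39 and -1.92 ± 0.38.

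Immediate early genes, which answer within minutes to cAMP and growth factors, had 8 of 18 members higher and 0 lower. Over all genes, 15.0% were higher and 15.5% lower. Nr4a1 and Atf3 had log2 fold changes of 3.73 ± 0.50 and 3.90 ± 0.46. Fos, a subunit of AP-1, had 53.2, 41.4, 4.41, 82.4 and 40.7 CPM in brown fat and 3.02, 1.53, 7.27 and 9.36 CPM in subcutaneous fat, a log2 fold change of 3.07 ± 0.72; brown fat replicate 3 was the low brown fat library, so the groups overlapped, and with limma-voom weights Fos was not called (adjusted p = 0.0747). Heat shock genes, which encode protein-folding chaperones, had 13 of 18 higher and 0 lower. Hspa1a had 261, 179, 116, 153 and 233 CPM in brown fat and 3.25, 1.53, 2.61 and 5.44 CPM in subcutaneous fat, a log2 fold change of 5.87 ± 0.43. Hspa1b, its near-identical neighbour, with which it can share reads, had 7.69 ± 1.09. Dnajb1, a co-chaperone, and Hspe1, a mitochondrial chaperonin, averaged 474 ± 126 CPM in brown fat and 50.7 ± 9.22 CPM in subcutaneous fat for the first and 556 ± 164 CPM in brown fat and 83.0 ± 8.85 CPM in subcutaneous fat for the second. Hspb7, a small heat shock protein of heart and muscle, was not called, at -2.35 ± 1.02 (adjusted p = 0.099), and was called lower without subcutaneous fat replicate 4, at -2.76. The labels give no time of collection.

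Among 17 genes of the ATF4 stress pathway and one-carbon metabolism, 4 were higher and 5 lower, against 15.0% and 15.5% of all genes. Atf4 itself was higher at 1.38 ± 0.22, while Phgdh and Psat1, the first enzymes of serine synthesis, were lower at -3.23 ± 0.79 and -3.02 ± 0.79. Brown fat replicate 2 was the high brown fat library for both, and with no filter on low counts neither was called (adjusted p = 0.0552 and 0.0674). In the retinoid list, 2 of 17 were higher and 7 lower. Dhrs9, a retinol dehydrogenase, averaged 6.27 ± 2.78 CPM in brown fat and 0.0984 ± 0.0804 CPM in subcutaneous fat, and Aldh1a1, which makes retinoic acid, 24.3 ± 33.2 CPM in brown fat and 253 ± 122 CPM in subcutaneous fat. Their log2 fold changes were 5.89 ± 0.70 and -3.38 ± 0.77, and that of Rara, a retinoic acid receptor, was -2.44 ± 0.44.

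Both depots came from mice given the hormone, and genes that carry its signal were called in both directions. Of 25 genes of the glucocorticoid axis and its common targets, 6 were higher in brown fat and 7 lower, against 15.0% and 15.5% of all genes, with a median log2 fold change of -0.09. Nr3c1, the receptor, averaged 65.8 ± 27.9 CPM in brown fat and 96.7 ± 26.7 CPM in subcutaneous fat, and Hsd11b1, which regenerates active corticosterone inside cells, 1009 ± 373 CPM in brown fat and 671 ± 267 CPM in subcutaneous fat. Neither was called, at -0.56 ± 0.32 and 0.59 ± 0.34 (adjusted p = 0.21 and 0.208), though limma-voom called Nr3c1 lower, at -0.79. Fkbp5, a co-chaperone and classical target, had 156, 99.2, 36.9, 33.8 and 44.7 CPM in brown fat and 210.4, 56.6, 16.2 and 39.3 CPM in subcutaneous fat. The depots overlapped widely, and its log2 fold change was -0.12 ± 0.68 (adjusted p = 0.907).

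Tsc22d3, the anti-inflammatory target known as GILZ, had 63.1, 59.7, 22.0, 28.3 and 77.2 CPM in brown fat and 646, 111, 126 and 129 CPM in subcutaneous fat. Subcutaneous fat replicate 1 was the high library, and the groups did not overlap (log2 fold change -2.34 ± 0.55, adjusted p = 0.00663). Klf15, a metabolic transcription factor, and Sult1a1, a sulfotransferase, were lower in brown fat at -1.75 ± 0.35 and -1.84 ± 0.35. Cdkn1a, a cell-cycle inhibitor, and Pdk4 were higher, at 2.32 ± 0.52 and 3.89 ± 0.49. Of 20 clock genes, 3 were higher and 5 lower, close to the 15.0% and 15.5% of all genes. Bhlhe40, Hlf and Nfil3 were higher at 2.54 ± 0.53, 1.65 ± 0.42 and 1.38 ± 0.34, and the repressors Cry2 and Per3 were lower at -1.44 ± 0.25 and -1.20 ± 0.33; Per3 was not called when brown fat replicates 2 and 4 were left out together (adjusted p = 0.0695).

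Matrix and macrophage genes that were called were mostly lower in brown fat. Of 22 collagen genes, 2 were higher in brown fat and 15 lower, with a median of -1.70. Of 30 other matrix genes, 0 were higher and 15 lower, against 15.0% and 15.5% of all genes. Col3a1, a fibrillar collagen, averaged 124 ± 104 CPM in brown fat and 535 ± 173 CPM in subcutaneous fat, and Fn1, fibronectin, 5.28 ± 1.94 CPM in brown fat and 25.0 ± 7.12 CPM in subcutaneous fat. Their log2 fold changes were -2.10 ± 0.50 and -2.24 ± 0.32. Thbs2, a thrombospondin, and Ogn, a small proteoglycan, were lower at -3.13 ± 0.60 and -2.67 ± 0.37. Col27a1, a fibrillar collagen of cartilage, went the other way, at 3.12 ± 0.62.

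Of 14 progenitor markers, 1 was higher and 4 lower, against 15.0% and 15.5% of all genes, among them Pdgfra at -2.27 ± 0.51, Cd55 at -2.01 ± 0.43 and Gdf10 at -2.80 ± 0.49; brown fat replicate 2 was the high brown fat library for Pdgfra, Cd55 and Ogn. Of 16 macrophage markers, 0 were higher and 10 lower. Cd163, a scavenger receptor of resident macrophages, had 2.59, 4.36, 2.0, 1.09 and 1.08 CPM in brown fat and 40.0, 23.1, 17.3 and 14.0 CPM in subcutaneous fat, a log2 fold change of -3.42 ± 0.46. Csf1r and Mrc1 were lower at -2.27 ± 0.34 and -2.15 ± 0.49. Of 8 neutrophil and mast cell markers, 1 was higher and 3 lower, against 15.0% and 15.5% of all genes. Their median log2 fold change was -0.68. Among the lower ones were the mast cell proteases Cma1 and Tpsb2, at -5.85 ± 0.81 and -5.04 ± 0.56. Of 6 lymphocyte markers, 0 were higher and 2 lower. Ighm, the heavy chain of immunoglobulin M, was lower at -3.79 ± 0.88, a call lost with limma-voom weights (adjusted p = 0.0612).

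Endothelial markers had 1 of 16 higher and 3 lower, against 15.0% and 15.5% of all genes. The higher one, Flt1, a receptor for vascular growth factor, had an adjusted p of 0.0434 (log2 fold change 0.77 ± 0.27), a call lost when any one subcutaneous fat library was left out (adjusted p = 0.0591 to 0.11), with no filter on low counts (0.0762), with limma-voom weights (0.0585) and with the spread from 36 libraries (0.0643). Skeletal muscle markers had 1 of 17 higher, Myl1, at 1.07 ± 0.26 with an adjusted p of 0.00634. Epithelial markers summed to 1.02 to 2.91 CPM in brown fat and 18, 85.7, 344 and 388 CPM in subcutaneous fat replicates 1, 3, 4 and 5, with 13 to 16 of 20 markers at 0 in the brown fat libraries. Their part, and that of macrophages, in the genes called lower in brown fat was not tested.

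**Figure D4:**
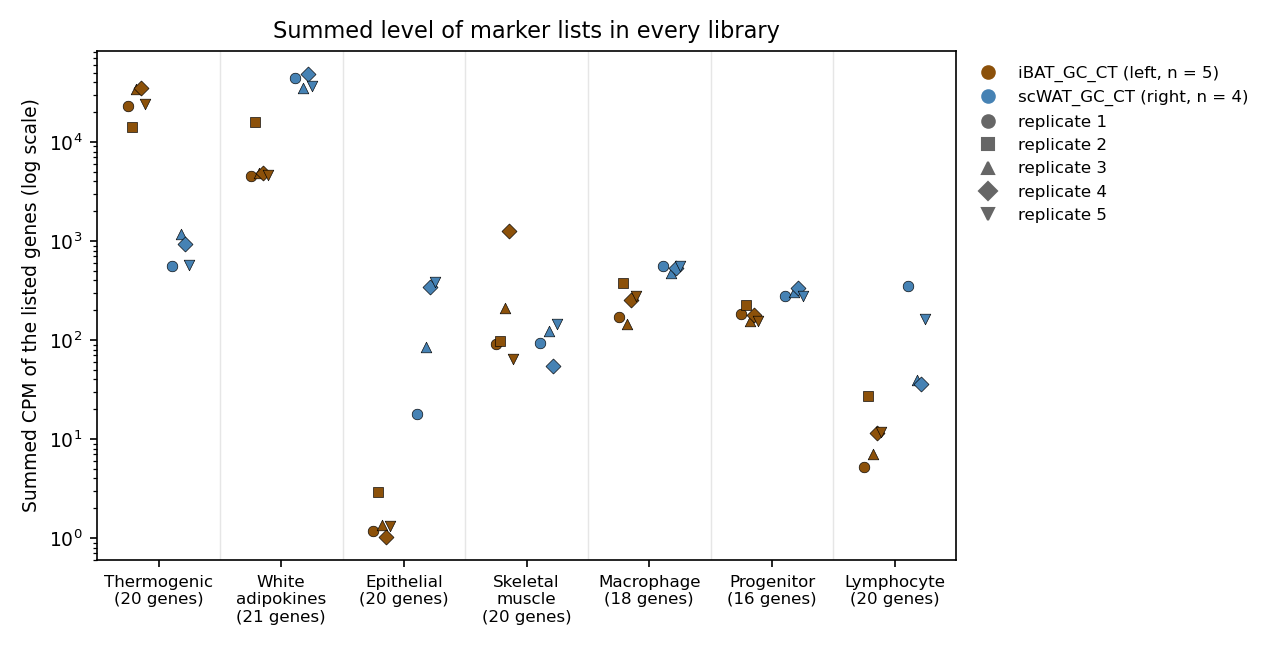
Summed level (CPM, log axis) of 7 gene lists in each library, brown fat at the left and subcutaneous fat at the right of each list, with the marker shape giving the replicate number. Thermogenic genes separate the depots, brown fat replicate 2 is the highest brown fat library for white-fat secreted factors, replicate 4 for skeletal muscle, and epithelial markers spread between 18 and 388 CPM within subcutaneous fat.

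Among all called protein-coding genes whose mean reached 3 log2 CPM and whose groups did not overlap, the largest log2 fold changes outside these lists were those of Car14, a carbonic anhydrase (7.32 ± 0.55), Kcp, a modulator of bone morphogenetic protein signalling (6.96 ± 0.76), Perm1, a regulator of muscle mitochondria (6.74 ± 0.55), and Me3, the mitochondrial malic enzyme (6.48 ± 0.59). On the other side stood Mup22, a major urinary protein with many near-identical copies (-6.63 ± 0.79), and Retnla, a resistin-like secreted protein (-5.23 ± 0.40). Alb, albumin, had 0.0784, 1.56, 2.5, 0.911 and 0.0386 CPM in brown fat and 62.4, 29.0, 24.4 and 27.3 CPM in subcutaneous fat, a log2 fold change of -5.11 ± 0.76. Lhfpl2, a membrane protein, Plagl1, an imprinted transcription factor, and Fgf10, a growth factor of adipose precursors, followed at -4.96 ± 0.50, -4.82 ± 0.59 and -4.79 ± 0.95. Over all genes tested, 4655 (28.0%) had no overlap between the groups, and 4059 (24.5%) were both called and without overlap.

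Whether the depot difference depended on corticosterone was tested at 13 °C in one fit of 36 libraries. In that fit, 6208 of 20421 genes (30.4%) were called between the depots under corticosterone and 3534 (17.3%) under placebo. The difference of the 2 depot differences was called for 26 genes (0.127%), with 15 more positive under corticosterone (0.0735%) and 11 more negative (0.0539%); 2445 genes had an unadjusted p under 0.05. Of the 20 thermogenic effectors, 19 were higher and 1, Car4, lower in brown fat under corticosterone and 16 higher and 0 lower under placebo, against 14.1% higher and 16.3% lower, and 7.73% higher and 9.58% lower, of all genes. The median log2 fold change of these effectors was 4.57 under corticosterone and 2.71 under placebo. Their median difference of differences was 2.46, against 0.03 over all genes. The difference of differences was called for 2 of the 20 effectors, Cpn2 (adjusted p = 0.0306) and Chchd10. The fitted size of Cpn2 depends on the prior count because it had 3 reads in scWAT_GC_CT. Chchd10 averaged 3718 ± 1481 CPM in iBAT_GC_CT and 233 ± 24.9 CPM in scWAT_GC_CT, and 2894 ± 735 CPM in iBAT_Ctrl_CT and 1643 ± 465 CPM in scWAT_Ctrl_CT. Of these 4 groups it was lowest in scWAT_GC_CT, and the difference of differences was 3.18 ± 0.54 on the log2 scale (adjusted p = 0.00588).

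Rasd1, a small G protein induced by glucocorticoids, shared the smallest adjusted p of this test with Slc7a8. It had 13.0, 45.3, 23.9, 17.2 and 15.3 CPM in iBAT_GC_CT and 168, 487, 522 and 849 CPM in scWAT_GC_CT, and 76.6, 101, 193, 139 and 270.3 CPM in iBAT_Ctrl_CT and 126, 150.1, 118, 128 and 100.5 CPM in scWAT_Ctrl_CT. Every scWAT_GC_CT library was above every iBAT_GC_CT library, while the placebo groups overlapped. The depot difference was -4.46 ± 0.55 under corticosterone and 0.32 ± 0.47 under placebo, a difference of -4.79 ± 0.70 (adjusted p = 0.000909). Slc7a8, an amino acid transporter, averaged 1.28 ± 0.812 CPM in iBAT_GC_CT, 19.0 ± 3.84 CPM in scWAT_GC_CT, 8.45 ± 5.9 CPM in iBAT_Ctrl_CT and 5.12 ± 1.9 CPM in scWAT_Ctrl_CT, a difference of -4.58 ± 0.69.

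Fmr1, an RNA-binding protein, and Peg3, an imprinted gene, had differences of differences of -2.22 ± 0.38 and -2.67 ± 0.50. Those of Pgam1, a glycolytic enzyme, and Parm1, a mucin-like membrane protein, were 1.48 ± 0.27 and 2.00 ± 0.37. The heat shock gene Hspa1a was also called, at 3.05 ± 0.65, and can share reads with Hspa1b as above. The adjusted p of these 5 genes was 0.00588 to 0.0385. Without scWAT_GC_CT replicate 4, Pgam1, Parm1, Peg3 and Hspa1a were not called. Chchd10 was then the only gene called more positive under corticosterone, so Cpn2 was not called either. The count of 26 rested on single libraries: it was 6 without scWAT_GC_CT replicate 4 and 90 without iBAT_GC_CT replicate 2. It was 12 without iBAT_GC_CT replicate 4 and 16 without replicate 5, 15, 12 and 13 without iBAT_Ctrl_CT replicates 1, 3 and 4, and 17, 14 and 17 without scWAT_Ctrl_CT replicates 1, 2 and 4. Epithelial markers summed to 18.9 to 417 CPM in scWAT_GC_CT and 2.89 to 117 CPM in scWAT_Ctrl_CT, with medians of 228 and 4.29 CPM. Their median difference of differences was -3.40 over 19 genes, with 0 called. Their part in the hormone test was not tested.

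The temperature test, under corticosterone at 13 °C and 22 °C, called 1675 genes (8.20%), 912 more positive at 13 °C (4.47%) and 763 more negative (3.74%); the depots themselves differed in 6648 genes (32.6%) at 22 °C. It uses the same iBAT_GC_CT and scWAT_GC_CT libraries as the hormone test. Thermogenic effectors were higher in brown fat at both temperatures, 19 of 20 in each, against 14.1% of all genes at 13 °C and 15.5% at 22 °C, and their median log2 fold change was 4.57 at 13 °C and 6.33 at 22 °C. The difference was called for 2 of them, Cpt1b and Otop1, both more negative at 13 °C. Cpt1b had 20.4, 38.0, 11.8, 7.33 and 11.4 CPM in iBAT_GC_RT and 0.0196, 0.0163, 0.0987, 0 and 0 CPM in scWAT_GC_RT. With scWAT_GC_RT at or near 0, the fitted depot difference at 22 °C depends on the prior count of the fit; the difference between temperatures had an adjusted p of 0.0115. Otop1, a proton channel, had a depot difference of 3.70 ± 0.70 at 13 °C and 6.90 ± 0.75 at 22 °C, a difference of -3.19 ± 0.86 (adjusted p = 0.0233). Ucp1 had depot differences of 8.01 ± 1.07 at 13 °C and 9.43 ± 1.02 at 22 °C, and the difference was not called, at -1.42 ± 1.04 (adjusted p = 0.403).

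Fatty acid synthesis had 6 of 19 members called in this test, all more negative at 13 °C, against 3.74% of all genes. Scd1 averaged 47301 ± 15818 CPM in iBAT_GC_CT and 48451 ± 15602 CPM in scWAT_GC_CT at 13 °C, and 68069 ± 33704 CPM in iBAT_GC_RT and 10766 ± 3109 CPM in scWAT_GC_RT at 22 °C. The depot difference was -0.03 ± 0.35 at 13 °C, not called, and 2.66 ± 0.35 at 22 °C, called, and the difference between them was -2.70 ± 0.49 (adjusted p = 0.00815). Irs1 reversed its sign, with depot differences of -3.08 ± 0.69 at 13 °C and 3.01 ± 0.66 at 22 °C, a difference of -6.10 ± 0.95. At 22 °C it averaged 14.2 ± 18.1 CPM in iBAT_GC_RT, an SD above the mean, and 1.75 ± 0.439 CPM in scWAT_GC_RT. Leng8 and Acsm3, a medium-chain acyl-CoA synthetase, had differences of -3.33 ± 0.45 and -4.18 ± 0.75, and the adjusted p of Irs1, Leng8 and Acsm3 was 0.000203 to 0.00815.

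Complex I had 8 of 36 nuclear genes called more positive at 13 °C and 0 more negative, against 4.47% and 3.74% of all genes, among them Ndufb6 at 1.44 ± 0.46 and Ndufa1 at 1.70 ± 0.46. Skeletal muscle markers also had a positive median difference, 5.52 on the log2 scale over 20 genes, with 0 called. They summed to 68.8 to 1375 CPM in iBAT_GC_CT and 57.9 to 157 CPM in scWAT_GC_CT at 13 °C, and 59.6 to 298 CPM in iBAT_GC_RT and 50.4 to 2609 CPM in scWAT_GC_RT at 22 °C, and their part in the complex I count was not tested. Droplet and lipolysis genes had 5 of 20 called, all more negative, including the receptors Hcar1 at -2.65 ± 0.67 and Hcar2 at -2.88 ± 0.82. Adrb3 had a depot difference of -0.71 ± 0.46 at 13 °C and 1.75 ± 0.45 at 22 °C, a difference of -2.46 ± 0.64 (adjusted p = 0.0201). The count of 1675 also moved with single libraries, to 510 without iBAT_GC_RT replicate 2, 821 without iBAT_GC_RT replicate 1, 865 without iBAT_GC_CT replicate 1, and 1102 and 748 without scWAT_GC_CT replicates 1 and 3. It was 3023, 988, 1001 and 1108 without scWAT_GC_RT replicates 1, 3, 4 and 5, and 886 without the pair of scWAT_GC_RT libraries rich in macrophage markers. Macrophage markers summed to 707 to 10454 CPM in scWAT_GC_RT. In iBAT_GC_RT they reached 5651 CPM in the highest library, with a group median of 309 CPM. That library was not left out together with the pair. Epithelial markers had 7 of 19 members called more negative at 13 °C, and their part in these counts was not tested.

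**Figure D5:**
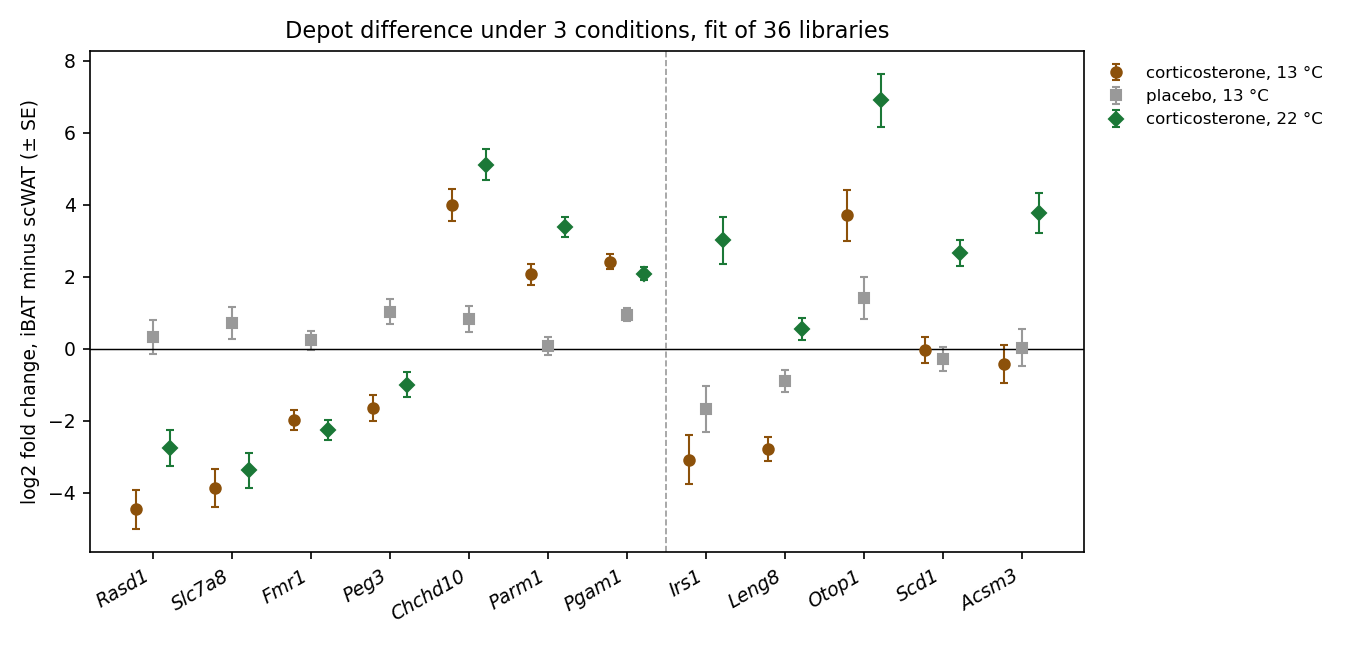
Depot difference (log2 fold change of brown over subcutaneous fat, with its standard error) of 12 genes under corticosterone at 13 °C, placebo at 13 °C and corticosterone at 22 °C, from the fit of 36 libraries. Left of the dashed line are genes called for the hormone, right of it genes called for the temperature; Rasd1 was near 0 under placebo and at -4.46 under corticosterone at 13 °C, and Irs1 changed sign between the temperatures.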

How the data were processed

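The deposited values were raw read counts per gene, 1 table per depot, joined by Ensembl gene ID (31933 genes). Per the submitters' processing notes, FastQC, GSNAP (2018-07-04), featureCounts (1.6.3) and the mouse build mm10 were used; the sources used here do not give the annotation release, the strand setting or the handling of multi-mapped reads. Per the labels' protocols, laser-captured tissue went through SMART-Seq2, a full-length method with no molecular identifiers, from about 2 ng of RNA. No per-sample column was left unused. Gene names and positions are from GENCODE on GRCm38, and promoters from RefSeq.

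Genes passing edgeR's filterByExpr (minimum count 10, total 15) were scaled by TMM and tested with edgeR 4.0.16 (quasi-likelihood, robust) in R 4.3.3, on the 9 libraries, or on 36 for interactions. Called means a Benjamini-Hochberg adjusted p under 0.05 over all genes tested; SE is the size of the log2 fold change over the square root of F. Levels are CPM after that scaling. Between-library spread corresponded to a biological coefficient of variation of 46.6%. Shares were compared by two-sided exact permutation. Intervals (95%) and the floor of 3 counts cover counting error only. The tests were tried on simulated data. Alternatives used limma 3.58.1 and DESeq2 1.42.0, another scaling, no filter, a replicate block and leaving out libraries. Genes were named by a fixed rule: the 12 largest called changes each way at a mean of 3 log2 CPM or more, up to 5 called members each way and up to 3 uncalled per list, the 8 smallest adjusted p per interaction, and a fixed set of depot and hormone genes; a few genes are not reported here; genes named for a depot difference may recur in the interaction tests. The members and lists were chosen with earlier results of these data known.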

Additional observations from a re-analysis of the deposited data

Results flagged for a closer look

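Single libraries that lay far from the rest of their group were looked for with Dixon's test at its 95% level. It was applied to the list means and to the CPM of every gene named. Chance marks about 1 in 20 groups where the values are normally distributed. The CPM of genes were not log-transformed, so that rate need not hold for them. Brown fat replicate 2 was marked most often. Its mean of white-fat secreted factors was 6.66 log2 CPM, against 4.8 to 5.24 in the other 4 brown fat libraries. It was also the high brown fat library for secreted and storage genes of white adipocytes: Retn at 1852 CPM, Cfd at 3494 CPM, Adipoq at 3133 CPM, Trf at 772 CPM, Nnat at 166 CPM, Plin4 at 356 CPM, Cidec at 1426 CPM and Hcar1 at 35.5 CPM. Enzymes of serine and retinoic acid synthesis were high there too, with Phgdh at 26.4 CPM, Psat1 at 27.2 CPM and Aldh1a1 at 83.5 CPM, as were stromal genes, with Pdgfra at 9.74 CPM, Cd55 at 17.2 CPM, Ogn at 14.1 CPM and Fgf10 at 11.6 CPM. Kng2, a gene higher in brown fat, was low there at 35.8 CPM.

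Brown fat replicate 1 was the high library for Hk2 at 733 CPM, Hoxc8 at 33.7 CPM, Bmp8b at 15.8 CPM, Prkaca at 338 CPM, Flt1 at 148 CPM, Adrb1 at 40.6 CPM, Prdm16 at 22.2 CPM, Cebpb at 353 CPM and Hspa1b at 198 CPM. Brown fat replicate 3 was high for Elovl3 at 1419 CPM, Hoxa9 at 0.273 CPM and Hoxc10 at 0.0455 CPM, the last a single read, and its immediate early genes were low, with a mean of 3.30 log2 CPM against 4.76 to 5.28. Brown fat replicate 4 had the low mean of adrenergic genes, 4.64 log2 CPM. Brown fat replicate 5 was high for Adrb3 at 950.1 CPM and Scd1 at 69479 CPM and low for Pparg at 139 CPM. Subcutaneous fat replicate 1 was high for Tsc22d3 at 646 CPM, Trf at 6289 CPM, Alb at 62.4 CPM and Mup22 at 55.9 CPM, and low for Hoxc10 at 7.59 CPM and for endothelial markers, with a mean of 4.98 log2 CPM. Subcutaneous fat replicate 3 was high for Pde4d at 12.2 CPM and Ppara at 5.9 CPM, replicate 4 for Col27a1 at 3.03 CPM, and replicate 5 for Cma1 at 15.9 CPM. Replicate 5 was low for Scd1 at 23396 CPM, Hk2 at 39.6 CPM and Myl1 at 32.8 CPM.

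For 9 of the genes named, the depot difference at 13 °C was itself different under corticosterone and placebo. The test was the interaction term of edgeR's quasi-likelihood test (adjusted p = 0.000909 to 0.0385). Over all 20421 genes tested, 26 (0.127%) were called. The change of the depot difference was -4.79 for Rasd1, -4.58 for Slc7a8, -2.67 for Peg3 and -2.22 for Fmr1 on the log2 scale, and 1.48 for Pgam1, 2.00 for Parm1, 3.05 for Hspa1a, 3.18 for Chchd10 and 5.91 for Cpn2, a size that depends on the prior count. Between 13 °C and 22 °C under corticosterone the depot difference was different for 25 of the genes named (adjusted p = 0.000203 to 0.0479). Over all genes tested, 1675 (8.20%) were called. A small p in these same tests was a rule by which genes were named. Rasd1, Slc7a8, Chchd10, Fmr1, Pgam1, Parm1 and Peg3 met it in the hormone test, and Leng8, Irs1, Scd1 and Acsm3 in the temperature test. The counts of 9 and 25 are therefore not independent of the tests. More negative at 13 °C were genes of fatty acid use and synthesis, with Cpt1b at -6.04, a size that depends on the prior count, Acsm3 at -4.18, Scd1 at -2.70, Slc27a1 at -1.94, Pcx at -1.66, Acacb at -1.55 and Srebf1 at -1.53. So were receptors and signalling genes, with Irs1 at -6.10, Hcar2 at -2.88, Hcar1 at -2.65, Adrb3 at -2.46, Esrrg at -2.86 and Cxcl14 at -2.81, and Leng8 at -3.33, Otop1 at -3.19, Cry2 at -1.44, Parm1 at -1.32 and Slc2a4 at -1.10. More positive at 13 °C were Dhrs9 at 5.13, Hspa1b at 4.10, Cdkn1a at 2.29, Ndufa1 at 1.70, Ndufb6 at 1.44, Hspe1 at 1.33 and Prkaca at 1.31. The sizes of Dhrs9 and Hspa1b rest on few reads, 12 and 35 over the scWAT_GC_CT libraries.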

How the results depend on the processing

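The count of genes called between the depots was 5063, and 5041 with relative log expression scaling, 5204 with no filter on low counts, 5839 with DESeq2, 7052 with limma-voom weights, 6208 with the spread taken from 36 libraries and 4997 with mitochondrially encoded genes left out. It was 1575 in a test against a 2-fold change, 484 with 1 subcutaneous fat library left after leaving out the 3 rich in epithelial transcripts, where that lone library is assumed to vary like the others, and 3888 to 5395 with each library left out in turn. Of 131 named genes called, the limma-voom fit kept 128, the unfiltered fit 125 and the fit with 1 subcutaneous fat library 73; no called gene changed sign. The depot difference in mitochondrial share, 14.4 percentage points, was 12 to 16.3 points with each library left out (exact permutation p up to 0.0357).

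Same-numbered libraries of the depots did not deviate together, with correlations of 0.012, 0.089, -0.168 and -0.016 for replicates 1, 3, 4 and 5, so the numbers were not used as pairs. With a replicate block, Retn (adjusted p = 5.49e-06), Hoxc8 (0.0321) and Atp5g1 (0.0297) were called lower, Angptl8 (0.119) and Flt1 (0.0757) were not called, and 4774 genes were called between the depots, 50 in the hormone test and 1183 in the temperature test.

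The hormone test was the least stable, with 26 genes called, 261 with DESeq2, 456 with limma-voom weights and 6 to 90 with each library left out. The temperature test gave 1675 genes, 2638 with DESeq2, 886 without the pair of scWAT_GC_RT libraries rich in macrophage markers and 510 to 3023 with each library left out. Signs reversed only for genes that were not called. Prdm16 was -0.0398 with limma-voom and -0.0529 to 0.415 with each library left out. Scd1 was 0.0155 with relative log expression scaling or DESeq2, -0.255 to 0.122 with each library left out, and 0.139 without brown fat replicates 2 and 4, a setting chosen after seeing the data. Fkbp5 was 0.0273 with limma-voom, 0.0383 with a replicate block, 0.0221 without that pair and -0.532 to 0.974 with each library left out, the highest without subcutaneous fat replicate 1. With 1 subcutaneous fat library left, Hsd11b1 was -0.0494 and Acsm3 0.0608; Acsm3 was -0.727 to 0.418 with each library left out. Why these values moved was not tested. Genes with few reads, such as Hoxc10 and Bmp8b, are limited by depth, and their size is known only within the counting intervals or bounds given.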

Other observations

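Gene groups not described above gave mixed or few calls between the depots. Of 20 genes of branched-chain amino acid breakdown, 5 were higher in brown fat and 3 lower. Of 21 cholesterol synthesis genes, 2 were higher and 0 lower, and of 14 genes of creatine and calcium cycling, 2 were higher and 1 lower. Of 10 genes proposed as beige fat markers, 1 was higher and 4 lower. Mural cell markers had 2 of 13 members higher and 0 lower, and Schwann cell and nerve markers 1 of 12 higher and 1 lower. Cell-cycle genes had 0 of 9 higher and 2 lower. The shares over all genes were 15.0% higher and 15.5% lower.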
